A study of Homo sapiens with 4 samples.

Results

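The genes described here are 35 genes for cytosolic and mitochondrial chaperones, out of 15037 genes in the count table. They were taken by symbol: heat shock genes, their co-chaperones, the 8 subunits of the CCT ring and the 6 subunits of prefoldin. All 35 had a row and all 35 passed the filter on low counts, with 536 to 156218 counts over the libraries. The cells were A549, a human lung carcinoma epithelial line grown in DMEM, and their poly(A) RNA was sequenced. The groups were 2 libraries after knockdown of PSME4 (PSME4 KD) and 2 control libraries, whose knockdown is given as RFP (control KD). PSME4 is a cap of the proteasome core particle. The labels name neither the reagent nor the length of the knockdown, and nothing says that the 2 libraries of a group stem from different cultures. The p-values below therefore rest on a spread between libraries that could be technical alone.

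Chaperones bind proteins that are not yet folded, or that have unfolded, and keep them from aggregating. HSP70 proteins hold short stretches of a client in a cycle of ATP hydrolysis that J proteins start and exchange factors reset, and HSP90 takes over clients close to their native form. The CCT ring encloses actin and tubulin, which prefoldin delivers to it, and the HSPD1 and HSPE1 proteins form the folding chamber of the mitochondrial matrix. Many of these genes are induced by the heat shock factor HSF1, which binds inverted repeats of GAA upstream of its targets. Clients that cannot be refolded are passed on to the proteasome.

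The libraries held 11766371 to 15208588 counts, the control KD libraries being the shallower ones. PSME4 itself was at 158 and 180 CPM (counts scaled to library size with TMM factors) in control KD 1 and 2, against 75.3 and 85.1 CPM in PSME4 KD 1 and 2, a log2 fold change of −1.08 (SE 0.20, adjusted p = 0.000855 by edgeR). All 10 epithelial and A549 markers looked up were present, at 25091 to 25622 CPM summed in control KD and 27283 to 29437 CPM in PSME4 KD. Of markers of other cells, 3 of 7 fibroblast, 2 of 6 leukocyte (CD68, CD14) and 0 of 4 endothelial genes passed the low-count filter. The fibroblast genes summed to 17.2 to 21.2 CPM in control KD and 26.4 to 28.6 CPM in PSME4 KD. They did not move together: COL1A1 was called higher (log2 fold change 0.73), PDGFRA lower (−1.34) and LUM (0.54) was not called. The leukocyte genes, with LYZ from below the filter included, summed to 29.1 to 33.8 CPM in control KD and 39.3 to 39.4 CPM in PSME4 KD. The part of these markers in the results was not tested. Each fold change sets PSME4 KD over control KD, and each adjusted p comes from the quasi-likelihood test of edgeR, with the method of Benjamini and Hochberg applied to 13497 genes and a threshold of 0.05.

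In PSME4 KD cells 8 of the 35 chaperone transcripts fell and 2 rose. HSPE1, the lid of the mitochondrial chamber, fell 2.86-fold, the prefoldin subunits PFDN4 and VBP1 fell 2.55-fold and 2.07-fold, and HSP90AA1, the inducible cytosolic HSP90, fell 1.82-fold. The J protein DNAJA1 fell 1.59-fold, and the CCT subunits CCT8, CCT2 and TCP1 also fell, CCT8 the most of them at 1.70-fold. The CCT subunit CCT7 rose 1.49-fold and the prefoldin subunit PFDN6 rose 1.59-fold. The remaining 25 did not pass the test.

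The 10 calls are 28.6% of the chaperone genes, beside 10.6% of all tested genes. Split by direction, 22.9% were lower and 5.71% higher, beside 6.00% and 4.56% of all tested genes. Of the 23 chaperone genes whose mean reached 100 CPM, 7 were called and 6 were lower. Among all genes at that level 14.2% were called and 10.2% were lower. Whether abundance bears on the share of chaperone genes called was not tested. At an unadjusted p under 0.05 by edgeR there were 18 of the 35, beside 26.2% of all tested genes. The median log2 fold change of the 35 genes was −0.28 and that of all tested genes −0.0021. Members whose 4 libraries separated by group numbered 26 (19 lower and 7 higher in PSME4 KD), or 74.3%, beside 55.0% of all tested genes (28.4% lower). Summed over the 35 genes, the level was 16508 and 14687 CPM in control KD 1 and 2 and 13277 and 11526 CPM in PSME4 KD 1 and 2, so both PSME4 KD libraries lay below both control KD libraries. The most abundant genes weigh most in this sum. HSPA8, HSP90AA1 and HSP90AB1 had means of 3107, 2714 and 1851 CPM in control KD. In PSME4 KD their means were 2763, 1495 and 1486 CPM, and of them only HSP90AA1 was called.

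**Figure D1:**
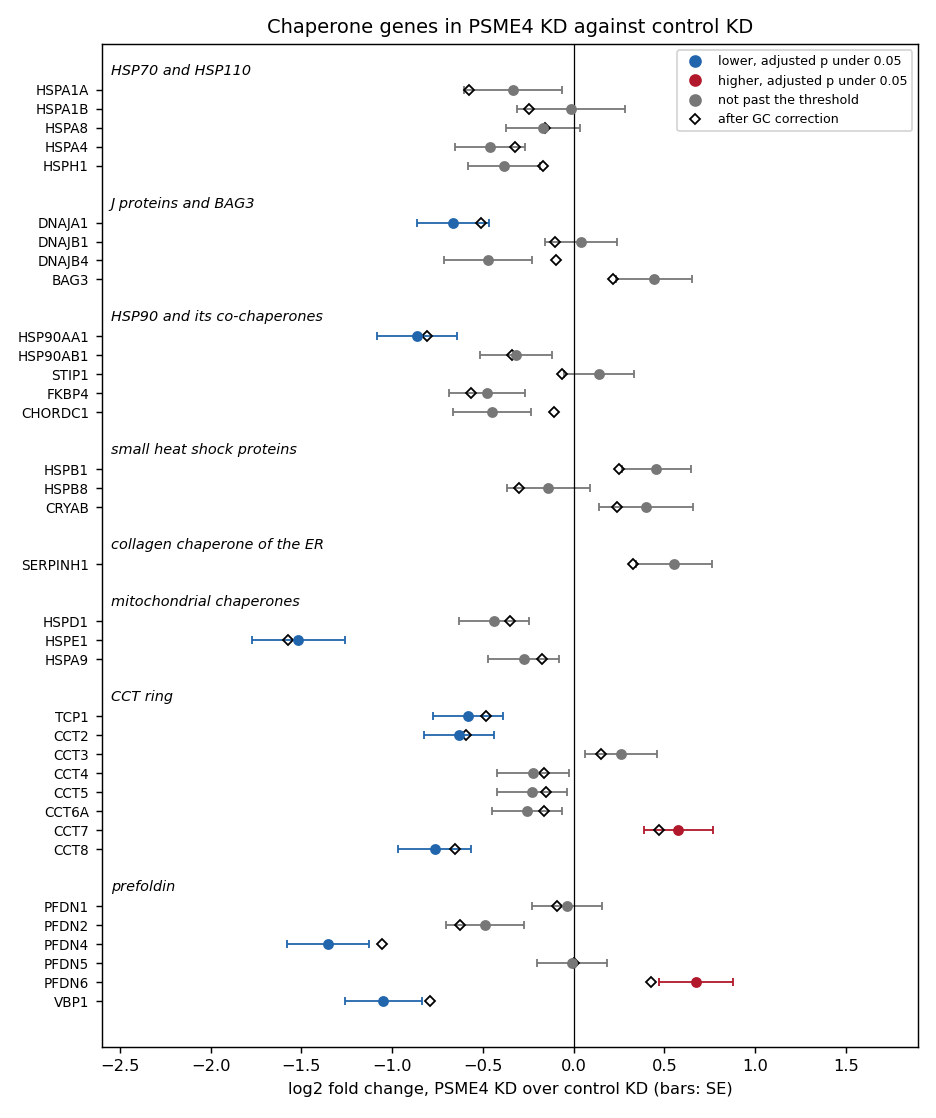
Log2 fold change of PSME4 KD over control KD (x axis) for the 35 chaperone genes, grouped by role (y axis). Filled points are edgeR values with SE bars, coloured where the adjusted p was under 0.05, and open diamonds are values after correction for GC content; HSPE1, PFDN4 and VBP1 lie farthest to the left, and CCT7 and PFDN6 are the 2 genes called higher.

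Few of these calls survived the loss of a library. In edgeR fits with 1 library left out, 0 of the 10 were called when either control KD library was dropped, 1 (HSPE1) when PSME4 KD 1 was, and 2 (HSPE1 and PFDN4) when PSME4 KD 2 was, while all 10 kept their direction. Over all genes, 53 were called without control KD 1, 94 without its replicate, 43 without PSME4 KD 1 and 281 in the fit that lacked PSME4 KD 2. Of the 8 transcripts that fell, all 8 were lower in PSME4 KD 2 than in PSME4 KD 1, as were 27 of the 35 members, beside 78.6% of all genes that fell and 50.8% of all tested genes. The control KD libraries differed in the same way. There 26 of the 35 members were lower in control KD 2 than in control KD 1, beside 52.1% of all tested genes.

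**Figure D2:**
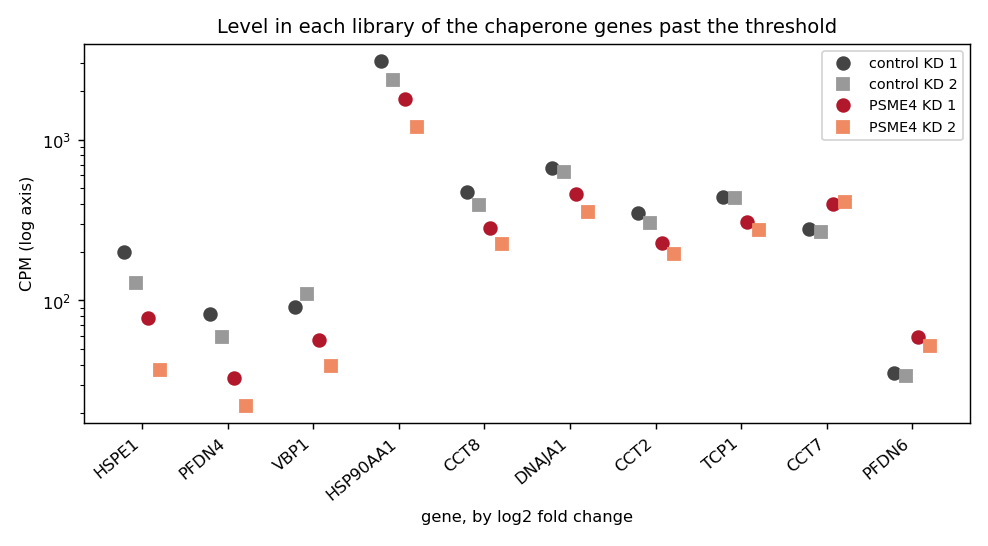
CPM on a log axis (y axis) in each of the 4 libraries for the 10 chaperone genes past the threshold, ordered by log2 fold change (x axis). Each point is 1 library; for every gene both PSME4 KD points lie on the same side of both control KD points, and among the 8 genes that fell PSME4 KD 2 is the lowest point.

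The DNA before the starts of these genes was searched for the letters of the motif that HSF1 binds, since the heat shock genes are its known targets. RefSeq promoter windows on GRCh38.p14 were found for 31 of the 35 genes, and the 250 bases before each start were searched for GAANNTTC or TTCNNGAA, each of which reads the same on both strands and can overlap the other by 3 bases. These letters stood in 17 of 45 windows of chaperone genes (37.8%), beside 11.6% of 35116 windows in the table. Windows of the same gene can overlap, as the 2 of PFDN6 do, so a match can be counted more than 1 time. By gene, they stood before 13 of 19 heat shock and co-chaperone genes and before 3 of 12 CCT and prefoldin genes. The share by gene was not computed over all genes. The stretches below are 30 bases each, 5′ to 3′ on the strand of the gene, with the matched letters in capitals. The first 5 belong to genes that were called, and the other 5 to heat shock genes and an HSP90 co-chaperone gene that were not.
HSP90AA1: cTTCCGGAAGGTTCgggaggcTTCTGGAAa
DNAJA1: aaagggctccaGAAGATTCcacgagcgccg
TCP1: tcgtttgaggcGAAGGTTCaacctcttccc
CCT2: cccggagcgaaGAAATTTCtagtgtgggac
PFDN6: agggtcagaaaGAAACTTCcggcacagtct
HSPA1A: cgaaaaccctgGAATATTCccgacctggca
HSPA8: gcgagcttGAAAGTTCCAGAAcgctgcggt
HSP90AB1: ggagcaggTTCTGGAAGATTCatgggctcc
HSPD1: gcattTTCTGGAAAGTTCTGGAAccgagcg
CHORDC1: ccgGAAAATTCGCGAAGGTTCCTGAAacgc

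The HSP90AA1 stretch lies at chr14:102087104-102087133, minus strand, and holds 3 matches. CHORDC1 (chr11:90223083-90223112, minus strand) shows 4 matches that overlap in a run, and HSPD1 (chr2:197500061-197500090, minus strand) shows 3. DNAJA1 (chr9:33025064-33025093, plus strand), TCP1 (chr6:159789815-159789844, minus strand), CCT2 (chr12:69585789-69585818, plus strand) and PFDN6 (chr6:33289539-33289568, plus strand) hold 1 match each. The HSPA1A (chr6:31815426-31815455, plus strand), HSPA8 (chr11:123062345-123062374, minus strand) and HSP90AB1 (chr6:44247770-44247799, plus strand) stretches hold 1, 2 and 2. For HSP90AA1, CCT2, HSP90AB1 and HSPD1 the stretch lies before a start inside the gene. The window before the outermost start of each of these genes held no match. The HSPA8 and PFDN6 stretches also lie before a start inside the gene. For HSPA8 and PFDN6 no window before the outermost start was available, so it was not searched. Genes with and without these letters did not separate by response: the letters stood before 4 of 8 genes that fell, 1 of 2 that rose and 11 of 21 that did not pass. The median log2 fold change was −0.33 for the 16 genes with the letters (range −0.86 to 0.67) and −0.23 for the 15 without (range −1.52 to 0.58). HSPE1, at −1.52, counted as without. The HSPD1 stretch also lies upstream of the HSPE1 start, but beyond the 250 bases searched, so this split depends on the window length. A match of letters is not a binding site, and binding of HSF1 was not measured.

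None of the 5 genes of the HSP70 and HSP110 group passed in edgeR or DESeq2, and the unadjusted p by edgeR was under 0.05 for 1 of them, beside 26.2% of all tested genes. HSPA8, the constitutive HSP70 and the chaperone gene with the highest level per kb of transcript in control KD (1262 CPM per kb), was at 3342 and 2873 CPM in control KD 1 and 2, against 2961 and 2566 CPM in PSME4 KD 1 and 2. Its groups overlapped, and its log2 fold change of −0.17 had a 95% interval of −0.59 to 0.25. HSPA4, an HSP110-type exchange factor that resets HSP70, was at 403 and 423 CPM in control KD and 319 and 280 CPM in PSME4 KD. Its groups did not overlap and its log2 fold change was −0.46 (SE 0.19, adjusted p = 0.120 by edgeR). HSPH1, the other HSP110, was at −0.39 (SE 0.20), also without overlap.

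The stress-inducible HSP70 genes HSPA1A and HSPA1B were at the other end of the range of levels, with 8.34 and 4.66 CPM per kb in control KD. These genes lie next to each other on chromosome 6 and encode near-identical proteins, so reads may have been split between them or dropped. Added up, they gave 37.5 and 27.4 CPM in control KD 1 and 2 and 38.2 and 17.9 CPM in PSME4 KD 1 and 2. The PSME4 KD libraries thus held both the highest and the lowest of the sums. HSPA1A had a log2 fold change of −0.34 (SE 0.27) and HSPA1B of −0.014 (SE 0.30). Without PSME4 KD 2 these values were 0.13 and 0.46, and without PSME4 KD 1 they were −0.97 and −0.67, past no threshold in either.

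Of the 3 J proteins and BAG3, DNAJA1 fell and the others did not pass. DNAJA1, which hands clients to HSP70 in the cytosol, was at 666 and 632 CPM in control KD 1 and 2, against 461 and 357 CPM in PSME4 KD 1 and 2. All 4 libraries separated by group, with a log2 fold change of −0.67 (SE 0.20, adjusted p = 0.0300 by edgeR). It lies on chromosome 9 at positions 33025273 to 33039907 (GRCh38). Its value was −0.86 without PSME4 KD 1 and −0.46 if PSME4 KD 2 was dropped, and a correction of the libraries for GC content left it at −0.51, short of the threshold (adjusted p = 0.0874 by edgeR).

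DNAJB1, the J protein that is induced by heat, was at 158 and 121 CPM in control KD, against 144 and 143 CPM in PSME4 KD, with a log2 fold change of 0.040 (95% interval −0.36 to 0.44). The counts of DNAJA1 per count of DNAJB1 were 4.21 and 5.23 in control KD 1 and 2 and 3.21 and 2.49 in PSME4 KD 1 and 2. DNAJB4, a close relative of DNAJB1, was at −0.47 (SE 0.24), moving from −0.85 without PSME4 KD 1 to −0.15 without PSME4 KD 2. BAG3, an exchange factor that routes HSP70 clients to autophagy, was at 34.5 and 28.6 CPM in control KD, against 39.8 and 46.1 CPM in PSME4 KD. Its groups did not overlap, and its log2 fold change of 0.44 (SE 0.21) did not pass the threshold (adjusted p = 0.176 by edgeR).

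HSP90AA1 fell, and it had the second highest level per kb of the chaperone genes in control KD (773 CPM per kb). Its level was 3069 and 2360 CPM in control KD 1 and 2 and 1795 and 1194 CPM in PSME4 KD 1 and 2. The groups did not overlap, although the libraries within each group also lay apart, at 2714 ± 502 CPM (SD, n = 2) and 1495 ± 425 CPM (SD, n = 2). The log2 fold change was −0.86 (SE 0.22, adjusted p = 0.0130 by edgeR), −1.18 without PSME4 KD 1, −0.57 without PSME4 KD 2 and −0.81 with GC content corrected (adjusted p = 0.0305 by edgeR). The gene spans positions 102080742 to 102139749 of chromosome 14 and overlaps WDR20.

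HSP90AB1, the constitutive cytosolic HSP90, came next in level per kb in control KD (692 CPM per kb). It was at 1954 and 1747 CPM in control KD, against 1536 and 1436 CPM in PSME4 KD, with a log2 fold change of −0.32 (SE 0.20, adjusted p = 0.319 by edgeR). The ratio of HSP90AA1 counts to HSP90AB1 counts was 1.57 and 1.35 in control KD 1 and 2 and 1.17 and 0.832 in PSME4 KD 1 and 2. The ratio was thus lower in both PSME4 KD libraries than in both control KD libraries. With 2 libraries against 2, an exact permutation test of such a ratio cannot give a two-sided p below 0.333.

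None of the 3 HSP90 co-chaperones passed. STIP1, which links HSP70 to HSP90, was at 371 and 362 CPM in control KD, against 439 and 368 CPM in PSME4 KD (log2 fold change 0.14, SE 0.19). FKBP4, a peptidyl-prolyl isomerase of steroid receptor complexes, was at −0.48 (SE 0.21), and CHORDC1, a zinc-binding HSP90 partner, at −0.45 (SE 0.21). Both lay lower in each PSME4 KD library than in each control KD library, but narrowly: the nearest libraries of the groups were at 156 and 153 CPM for FKBP4 and at 71.5 and 70.7 CPM for CHORDC1. Without control KD 1 FKBP4 was at −0.16, and without PSME4 KD 2 CHORDC1 was at −0.16.

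Small heat shock proteins, which hold unfolded proteins without ATP, did not pass the test (0 of 3 by edgeR or DESeq2, with 1 unadjusted p under 0.05 by edgeR, beside 26.2% of all tested genes). HSPB1 was at 179 and 153 CPM in control KD, against 220 and 235 CPM in PSME4 KD, without overlap, with a log2 fold change of 0.46 (SE 0.19, adjusted p = 0.125 by edgeR). CRYAB, the alpha-B crystallin, was at 8.91 CPM or below in control KD and reached 11.4 CPM in PSME4 KD 2 (log2 fold change 0.40, SE 0.26). HSPB8, which works together with BAG3, was at −0.14 (SE 0.23), and its groups overlapped. SERPINH1, a collagen chaperone that resides in the endoplasmic reticulum rather than in the cytosol, was at 27.9 and 26.7 CPM in control KD, against 38.7 and 41.4 CPM in PSME4 KD. Its log2 fold change of 0.55 (SE 0.21) had an adjusted p of 0.0860 by edgeR, above the threshold, and was 0.33 after the GC correction.

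HSPE1 showed the largest fold change of the 35 genes. Its level was 200 and 129 CPM in control KD 1 and 2 and 78.0 and 37.0 CPM in PSME4 KD 1 and 2 (2315, 1502, 1188 and 564 counts). The groups did not overlap, but within each group 1 library was well above the other, and the spread was 165 ± 50.3 CPM (SD, n = 2) and 57.5 ± 29 CPM (SD, n = 2). The log2 fold change was −1.52 (SE 0.26, adjusted p = 0.000369 by edgeR). DESeq2 gave nearly the same fold change (−1.51) but an adjusted p of 0.0910, above the threshold. Leaving out control KD 1 gave −1.17 and control KD 2 −1.79, neither past the threshold; leaving out PSME4 KD 1 gave −2.15 and PSME4 KD 2 −1.05, both past it. With GC content corrected it was −1.57 (adjusted p = 0.00126 by edgeR).

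HSPD1, which encodes the barrel that the HSPE1 protein caps, lies on the opposite strand of chromosome 2, and 104 bases separate the 5′ ends of these genes in RefSeq. HSPE1 spans positions 197500379 to 197503449 and HSPD1 positions 197486584 to 197500274. HSPD1 was at 644 and 656 CPM in control KD, against 519 and 442 CPM in PSME4 KD, without overlap, with a log2 fold change of −0.44 (SE 0.19) that did not pass (adjusted p = 0.146 by edgeR). The counts of HSPE1 per count of HSPD1 were 0.311 and 0.197 in control KD 1 and 2 and 0.150 and 0.0838 in PSME4 KD 1 and 2. The ratio was lower in each PSME4 KD library than in each control KD library, and lowest in PSME4 KD 2. It is a ratio of raw counts, not scaled to the longest transcripts, of 950 bases for HSPE1 and 2455 bases for HSPD1. HSPE1 shares its exons with the readthrough gene HSPE1-MOB4 in RefSeq, and no source used here says how such reads were counted. HSPA9, the HSP70 of the mitochondrial matrix, was at 508 and 434 CPM in control KD, against 359 and 420 CPM in PSME4 KD (log2 fold change −0.28, SE 0.19).

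The 8 subunits of the CCT ring take 1 place each in either of its stacked rings, and their transcripts moved in different directions. CCT8 fell from 474 and 390 CPM in control KD 1 and 2 to 283 and 225 CPM in PSME4 KD 1 and 2 (log2 fold change −0.77, SE 0.20). CCT2 fell from 350 and 304 CPM to 229 and 194 CPM (−0.63, SE 0.19), and TCP1 from 441 and 432 CPM to 308 and 274 CPM (−0.58, SE 0.19). CCT7 rose from 279 and 265 CPM to 401 and 410 CPM (0.58, SE 0.19). All 4 genes separated the libraries by group. Their adjusted p-values by edgeR were 0.0144, 0.0358, 0.0482 and 0.0489, so TCP1 and CCT7 passed narrowly.

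The other subunits CCT3, CCT4, CCT5 and CCT6A had log2 fold changes of 0.26, −0.23, −0.23 and −0.26 (SE 0.19 to 0.20) and did not pass. CCT4 overlapped between groups, at 772 and 601 CPM in control KD and 547 and 627 CPM in PSME4 KD. Divided by transcript length, the mean level of the subunits in control KD ran from 134 CPM per kb for CCT7 to 272 CPM per kb for CCT4. In PSME4 KD it ran from 96.5 CPM per kb for CCT2 to 294 CPM per kb for CCT3. The highest subunit was 2.23 and 2.14 times the lowest in control KD 1 and 2 and 2.91 and 3.20 times the lowest in PSME4 KD 1 and 2. CCT7 made up a mean of 8.97% of the length-scaled CCT transcripts in control KD and 15.1% in PSME4 KD, and CCT8 14.4% against 9.57%. The counts of CCT8 per count of CCT7 went from 1.70 and 1.47 to 0.708 and 0.547. This pair was formed from a gene called lower and a gene called higher, so its separation follows from those calls. The shares of CCT7 and CCT8 restate the same calls, and the spread in PSME4 KD starts at CCT2, which was also called lower. None of these values was corrected for GC content, which was 45.9% for CCT2, 43.1% for CCT8 and 51.3% for CCT7.

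CCT8 spans positions 29056326 to 29073648 of chromosome 21, CCT2 69585459 to 69601570 of chromosome 12, TCP1 159778498 to 159789602 of chromosome 6 and CCT7 73234308 to 73253005 of chromosome 2, on GRCh38. TCP1 overlaps ACAT2 and 2 small nucleolar RNA genes, and the others overlap no RefSeq gene. After the GC correction CCT8 (−0.65) and CCT2 (−0.59) were still called, while TCP1 (−0.48, adjusted p = 0.0829 by edgeR) and CCT7 (0.47, adjusted p = 0.0815 by edgeR) did not pass. A correction for both GC content and transcript length called CCT7 and not the other 3. With 1 library left out CCT8 ran from −0.94 to −0.58, CCT2 from −0.75 to −0.49, TCP1 from −0.67 to −0.47 and CCT7 from 0.55 to 0.61.

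**Figure D3:**
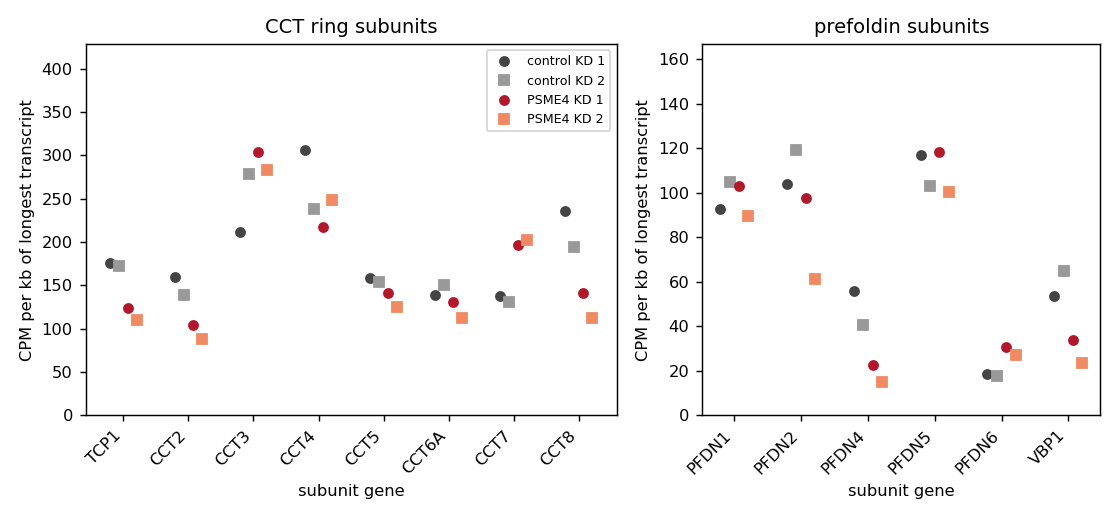
CPM per kb of the longest annotated transcript (y axis) for the subunit genes of the CCT ring and of prefoldin (x axis), with 1 point per library. Of the subunits past the threshold, CCT7 and PFDN6 lie higher in both PSME4 KD libraries than in both control KD libraries, and TCP1, CCT2, CCT8, PFDN4 and VBP1 lie lower.

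Prefoldin is a hexamer of 2 alpha-type and 4 beta-type subunits, and its transcripts also moved in different directions. Their range did not widen: per kb of transcript the highest subunit was 6.28 and 6.72 times the lowest in control KD 1 and 2. In PSME4 KD 1 and 2 it was 5.21 and 6.67 times the lowest. The lowest subunit was PFDN6 in both control KD libraries and PFDN4 in both PSME4 KD libraries. The SD of the log2 levels of the subunits was 0.98 and 1.06 in control KD 1 and 2. It was 1.05 and 1.13 in PSME4 KD 1 and 2. PFDN4, a beta-type subunit, was at 81.8 and 59.2 CPM in control KD 1 and 2, against 33.2 and 22.0 CPM in PSME4 KD 1 and 2. All 4 libraries separated by group, with a log2 fold change of −1.35 (SE 0.23, adjusted p = 0.000327 by edgeR), −1.05 with GC content corrected (adjusted p = 0.00507 by edgeR), and −1.68 to −1.06 with 1 library left out. VBP1, an alpha-type subunit that also binds the VHL protein, was at 90.5 and 109 CPM in control KD, against 57.1 and 39.3 CPM in PSME4 KD. Its log2 fold change was −1.05 (SE 0.21, adjusted p = 0.00227 by edgeR), with values of −1.34 without PSME4 KD 1 and −0.77 if PSME4 KD 2 was left out, neither past the threshold. Correcting for GC content gave −0.79 (adjusted p = 0.00875 by edgeR).

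PFDN6, a beta-type subunit, moved the other way, from 35.6 and 34.0 CPM in control KD 1 and 2 to 59.1 and 51.8 CPM in PSME4 KD 1 and 2. Its log2 fold change was 0.67 (SE 0.20, adjusted p = 0.0329 by edgeR), 0.58 to 0.79 with 1 library left out, and 0.43 after the GC correction, where it did not pass (adjusted p = 0.123 by edgeR). The alpha-type PFDN5 was at 231 and 204 CPM in control KD, against 234 and 199 CPM in PSME4 KD, a log2 fold change of −0.0075 (95% interval −0.40 to 0.39). The beta-type PFDN1 was at −0.037 (95% interval −0.43 to 0.36), and PFDN2, also beta-type, at −0.49 (SE 0.22, adjusted p = 0.146 by edgeR), from −0.86 without PSME4 KD 1 to −0.16 without PSME4 KD 2.

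The ratios that follow set prefoldin genes called lower over PFDN6, which was called higher. Their separation by group therefore follows from those calls and is no further result. They were not corrected for GC content, which was 35.3% for PFDN4, 38.2% for VBP1 and 58.4% for PFDN6. PFDN4 counts per PFDN6 count were 2.30 and 1.74 in control KD 1 and 2 and 0.561 and 0.425 in PSME4 KD 1 and 2, and VBP1 counts per PFDN6 count were 2.54 and 3.21 against 0.967 and 0.758. In control KD both PFDN4 and VBP1 had more counts than PFDN6, and in PSME4 KD both had fewer. PFDN4 spans positions 54208087 to 54219961 of chromosome 20, VBP1 155197007 to 155239841 of chromosome X and PFDN6 33289197 to 33290934 of chromosome 6, where it overlaps WDR46 and a microRNA gene.

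Fold changes of the chaperone genes followed the GC content of their transcripts. Over the 35 genes, which share the same 4 libraries, Spearman's rho between log2 fold change and GC content was 0.68, beside 0.40 over 12979 tested genes and 0.41 over the 35 genes after the GC correction. Among the 12 members with the lowest GC content (33.1% to 44.2%) 5 fell and none rose, with a median log2 fold change of −0.47. Among the 12 with the highest (51.3% to 64.3%) 2 rose and none fell, with a median of 0.27. In the same bands of GC content 10.7% of all tested genes fell at the low end and 8.43% rose at the high end, with medians of −0.22 and 0.24. Among the 11 members in between (44.6% to 51.2%) 3 fell and 0 rose, with a median of −0.23. In that middle band 5.09% of all tested genes fell and 3.63% rose, with a median of 0.019. HSPE1, with the largest fold change, had a GC content of 50.2%, in the middle of the range.

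**Figure D4:**
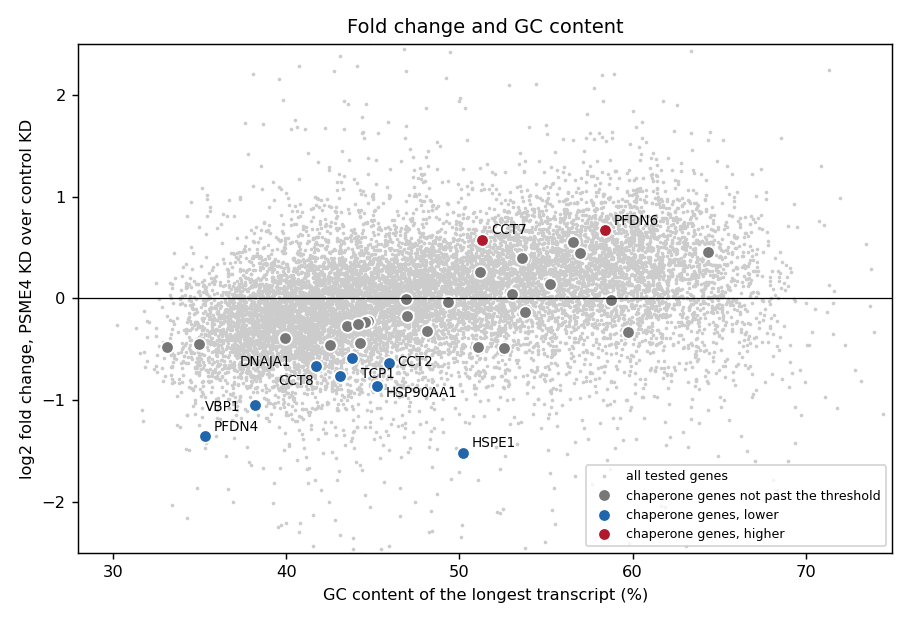
Log2 fold change of PSME4 KD over control KD (y axis) against the GC content of the longest annotated transcript in percent (x axis). Grey dots are tested genes, of which 41 lie outside the axes, and coloured points are the 35 chaperone genes; PFDN4, VBP1, DNAJA1, CCT8 and TCP1 fell and are among the 12 chaperone genes of lowest GC content, and CCT7 and PFDN6 rose and are among the 12 of highest.

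After each library was corrected for GC content, 6 of the 10 calls remained and none was added: HSP90AA1, HSPE1, CCT2, CCT8, PFDN4 and VBP1, all lower. This is 6 of 35 genes, beside 9.31% of all tested genes called in that fit and 5.19% called lower. The 2 genes that rose, CCT7 and PFDN6, did not pass in it, nor did DNAJA1 and TCP1. The median of the 35 log2 fold changes after correction was −0.17.

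In the authors' deposited table, which gives control KD over PSME4 KD, 9 of the 35 genes had an adjusted p under 0.05, beside 6.46% of all rows. Of these 9 genes, 7 were lower and 2 higher in PSME4 KD. In the authors' deposited table HSPE1 had a log2 value of 1.51 (control KD over PSME4 KD) and an adjusted p of 0.118, and was the only gene of the 10 above not called there.

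Beyond the 35 genes, 104 other genes of the same chaperone systems were listed, 94 had a row and 93 could be tested. Of these 4 rose and 5 fell, a share to set beside the 10.6% of all tested genes, and their median log2 fold change was −0.0040. The heat shock factor HSF1 was at 31.0 and 14.5 CPM in control KD 1 and 2, against 20.4 and 22.2 CPM in PSME4 KD 1 and 2, so that the control libraries held both the highest and the lowest value. Its log2 fold change was −0.093 (95% interval −0.63 to 0.44), and that of HSF2 was −0.20 (95% interval −0.64 to 0.25). None of the 4 genes for heat shock factors and their binding protein passed by edgeR, with 0 at an unadjusted p under 0.05.

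Among 29 other HSP70 system genes 2 rose and 1 fell. HSPA2, an HSP70 best known from the testis, was at 22.9 and 30.8 CPM in control KD, against 79.0 and 42.1 CPM in PSME4 KD (log2 fold change 1.17, SE 0.24), 0.65 without PSME4 KD 1. SGTA, a co-chaperone of tail-anchored proteins, rose by 0.77 (SE 0.25) and was at 0.55, no longer past the threshold, once GC content was corrected. DNAJB6, a J protein that suppresses aggregation, fell from 76.3 and 66.2 CPM to 44.2 and 40.6 CPM (−0.75, SE 0.20), and was at −0.94 after the GC correction.

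Among 26 other HSP90 system genes 2 rose and 2 fell. The phosphatase PPP5C, which dephosphorylates HSP90 and its clients, rose by 0.93 on the log2 scale (SE 0.22), from 25.3 and 33.0 CPM in control KD to 63.1 and 47.8 CPM in PSME4 KD. RPAP3, a scaffold that brings HSP90 to the assembly of large complexes, had a log2 fold change of −0.88 (SE 0.21), and TOMM70, the import receptor that takes mitochondrial precursors from HSP70 and HSP90, of −0.60 (SE 0.19); both passed the threshold. After the GC correction TOMM70 (−0.46) did not pass.

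None of the 18 other mitochondrial chaperones and proteases that could be tested passed by edgeR; the unadjusted p was under 0.05 for 6 of them, beside 26.2% of all tested genes. Of 15 other genes of the CCT and prefoldin pathway, TBCA, a tubulin folding cofactor, fell by 0.72 on the log2 scale (SE 0.23), but it was at −0.32 without PSME4 KD 2 and at −0.36 after the GC correction, past no threshold in either. HSPB11, named as a small heat shock protein but a part of intraflagellar transport, fell by 0.77 (SE 0.20).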

How the data were processed

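The values used are raw counts per gene in 4 libraries from the table the authors deposited. The same table gives the authors' log2 fold change (control KD relative to PSME4 KD) and adjusted p-value, per the file headers. The submitters' processing notes name hg38, cutadapt, STAR and DESeq2 without versions. Read counter, strand setting and annotation are not stated there, so reads of overlapping genes (16 of the 35) may have been shared or dropped. Libraries were made with a Lexogen SENSE kit from poly(A) RNA, per the labels' protocols.

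The main analysis used edgeR 4.0.16 under R 4.3.3 (filterByExpr, TMM, glmQLFit and glmQLFTest; group as the only term, 2 residual degrees of freedom), fitted on the whole table, 13497 of 15037 genes, with a biological coefficient of variation of 15.3%. SE is the size of the log2 fold change over the root of its F statistic. SDs are over 2 libraries. Alternatives were DESeq2 1.42.0 (test or size factors), limma 3.58.1 (voom), other filters, thresholds and scaling, a block for the replicate number, fits without each library in turn, and a GC correction by a lowess trend (span 0.4) on the longest GENCODE 29 transcript, which 96.2% of tested genes had; a GC and length correction was added after seeing the data. The steps were tested on simulated data. Coordinates are RefSeq GRCh38.p14, the assembly of hg38.

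The members and lists were chosen with earlier results of these data known. Named genes are all 35 members, members of the other chaperone lists past the threshold (at most 4 a list), HSF1, HSF2 and PSME4. The values of 1 gene that this rule names are not reported here. Each library counted as 1 replicate, with groups and numbers from the sample titles.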

Additional observations from a re-analysis of the deposited data

How the results depend on the processing

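The count of 10 chaperone genes stayed within 1.5 times under DESeq2, voom, both other scalings, both other filters and a threshold of 0.10 (9 to 11). It was 6 after the GC correction, 5 after the GC and length correction and 2 when tested against a log2 change of 0.58 (HSPE1 and PFDN4). With 1 library left out it was 0 to 2, the count over all genes 43 to 281 and that of the other chaperone system genes (9 in all) 0 to 6. Over all genes 2240 passed at 0.10 and 115 against 0.58; of the other chaperone system genes 18 and 0 did, and 5 after either correction. The median log2 fold change of the 35 genes lay between −0.38 and −0.16 in all of these fits, DESeq2 and voom included.

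Replicate numbers are shared between groups, but nothing says that they pair libraries, and the deviations of same-numbered libraries correlated at −0.018. With the replicate number as a block 10 chaperone genes passed, and 11 with the block and the GC correction, all lower, HSPA1A, FKBP4 and PFDN2 among them; over all genes the block gave 1554 calls.

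Signs changed for HSPA1A (−0.34 in the report) and for 6 members nearer to 0, none of them called in the report. HSPA1B was at 0.022, PFDN1 at 0.0026 and PFDN5 at 0.033 with library size as the only scaling. PFDN5 was at 0.00095 by DESeq2, 0.0041 after the GC correction and 0.061 after the GC and length correction. DNAJB1 was at −0.10 after the GC correction, −0.098 with the block added and −0.047 with length. STIP1 was at −0.065 after the GC correction, −0.070 with the block added and −0.019 with length. With 1 library left out HSPA1A ran from −0.97 to 0.13, HSPA1B from −0.67 to 0.46, DNAJB1 from −0.14 to 0.25, HSPB8 from −0.38 to 0.15, PFDN1 from −0.14 to 0.091 and PFDN5 from −0.13 to 0.13. Of the other genes HSF1 was at 0.0065 by voom and ran from −0.53 to 0.55 with 1 library left out, and HSF2 ran from −0.40 to 0.038 and was at 0.010 after the GC correction, 0.012 with the block added and 0.058 with length. The cause of these shifts was not tested. The SE was 0.30 for HSPA1B, 0.27 for HSPA1A and 0.26 for CRYAB, which have few counts, and 0.19 for TCP1, which has many.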
